A study of Capra hircus with 198 samples.

Results

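Myosin heavy chains are the motor subunits of the thick filament, and the cardiac and skeletal myosin-binding proteins C lie along that filament and tune how the heads reach actin. The genes described here were chosen by name, with earlier results of these data known: MYH2, MYH3, MYH6, MYH7, MYH7B, MYH11, MYH15, MYBPC1, MYBPC2 and MYBPC3. Of these 10, 6 had a count in the gene table of 39734 features, namely MYH7B, MYH11, MYH15, MYBPC1, MYBPC2 and MYBPC3. MYH2, MYH3, MYH6 and MYH7 were not analysed here, so the fibre type of a muscle was read from the binding proteins and from the partner genes of slow and fast fibres.

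As background, MYBPC1 encodes the slow skeletal binding protein C, MYBPC2 the fast skeletal one and MYBPC3 the cardiac one. MYH7B is a sarcomeric heavy chain of heart and slow muscle whose gene holds the microRNA MIR499 in the RefSeq annotation. MYH11 is the smooth muscle heavy chain, the motor of the muscle coats of gut and vessels, and MYH15 is a heavy chain of the sarcomeric type whose role in mammals is little described.

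The study measured total RNA in 33 tissues of 6 adult female Murciano-Granadina goats, a dairy breed, with 1 library for each goat and tissue. The lactating goats were numbered 2, 3 and 6, and the dry goats 54, 64 and 73. All 6 goats gave every tissue, and the state of lactation cannot be told apart from any other way in which the 3 lactating goats differed from the 3 dry ones. Levels are in CPM, the counts of a gene scaled to a common total per library, and are given per goat in the order of the goat numbers within a state, and otherwise as mean ± SD over goats. They were not divided by gene length, so 1 gene's level is not set against another's.

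Total counts per library ran from 1.31 to 8.97 M with a median of 4.63 M, so that 3 counts stood for 2.29 CPM in the shallowest library and 0.335 CPM in the deepest. Features annotated as long noncoding RNAs took a mean of 85% of the counts, with a range of 77% to 90.9%, and this left the other genes the rest of that depth. In bulk tissue, fewer cells of a type and less RNA per cell cannot be told apart.

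The left ventricle held the cardiomyocyte markers (TNNI3, TNNT2, NPPA, RYR2 and MYL7, 5 of 5 present) at sums of 1060 to 1561 CPM, where the diaphragm had 0.523 to 8.75 CPM and the masseter 0.945 to 3.42 CPM. Some libraries of other tissues went against their tissue label or stood apart from the other goats in the marker genes, and they touch results below. The skeletal muscle markers (ACTA1, CKM, NEB, MYLPF, TNNT1 and TNNT3, 6 of 6 present) summed to 2305, 8.81 and 11430 CPM in the esophagus of lactating goats 2, 3 and 6, against 3.74, 12.5 and 6.62 CPM in dry goats 54, 64 and 73. In the neck skin they summed to 29, 7613 and 21.3 CPM in lactating goats and to 44.1, 28.5 and 24.9 CPM in dry goats. The keratin KRT5, a marker of basal epidermis, stood at 0 CPM in the neck skin of goats 3 and 6. The pineal gland libraries of the lactating goats had 0, 0 and 0.419 CPM of TPH1, the first enzyme of the melatonin pathway, against 125, 57.1 and 100 CPM in dry goats. The abomasum library of goat 2 had 2.5 CPM of the glandular epithelium markers (EPCAM, KRT8, KRT18 and KRT19, 4 of 4 present), where the other 5 had 161 to 341 CPM. It was also low in the smooth muscle markers listed below, at 0.909 CPM where the others had 15.6 to 40.3 CPM. Its endothelium markers (VWF, PECAM1 and CDH5) summed to 0.227 CPM, against 6.53 to 36.4 CPM. Its immune markers (PTPRC, CD3E and JCHAIN) summed to 0.681 CPM, against 160 to 1170 CPM. Its adipocyte and Schwann cell sums, at 16.5 and 3.18 CPM, were the highest of the tissue. In the reticulum of goat 54 the smooth muscle markers (ACTA2, ACTG2, TAGLN, CNN1 and DES, 5 of 5 present) summed to 177 CPM, where the other 5 had 478 to 1147 CPM. In the rumen of goat 54 the squamous epithelium markers (KRT5, KRT14, KRT4 and KRT6A, 4 of 4 present) summed to 73.7 CPM, where the other 5 had 873 to 1499 CPM. In the esophagus the squamous markers summed to 2003, 793 and 0 CPM in lactating goats 2, 3 and 6. They summed to 5117, 7314 and 6997 CPM in the esophagus of dry goats 54, 64 and 73.

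The 6 genes differed in the tissues where they were highest. MYBPC1 and MYBPC2 had their highest means in the diaphragm, and MYBPC3 and MYH7B in the left ventricle of the heart. MYH11 was highest in the reticulum and had a count in all 198 libraries, while MYH15 was highest in the colon. A mean of at least 1 CPM was reached in 33 tissues by MYH11, 31 by MYH7B, 25 by MYBPC1, 24 by MYH15, 24 by MYBPC3 and 22 by MYBPC2. The authors' deposited table gave tissue specificity scores (tau, a fraction from 0 for even to 1 for a single tissue) of 0.8562 for MYBPC1, 0.8465 for MYBPC2 and 0.828 for MYBPC3. In the same authors' deposited table the heavy chains stood lower, with 0.6607 for MYH15, 0.6406 for MYH7B and 0.4343 for MYH11.

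**Figure D1:**
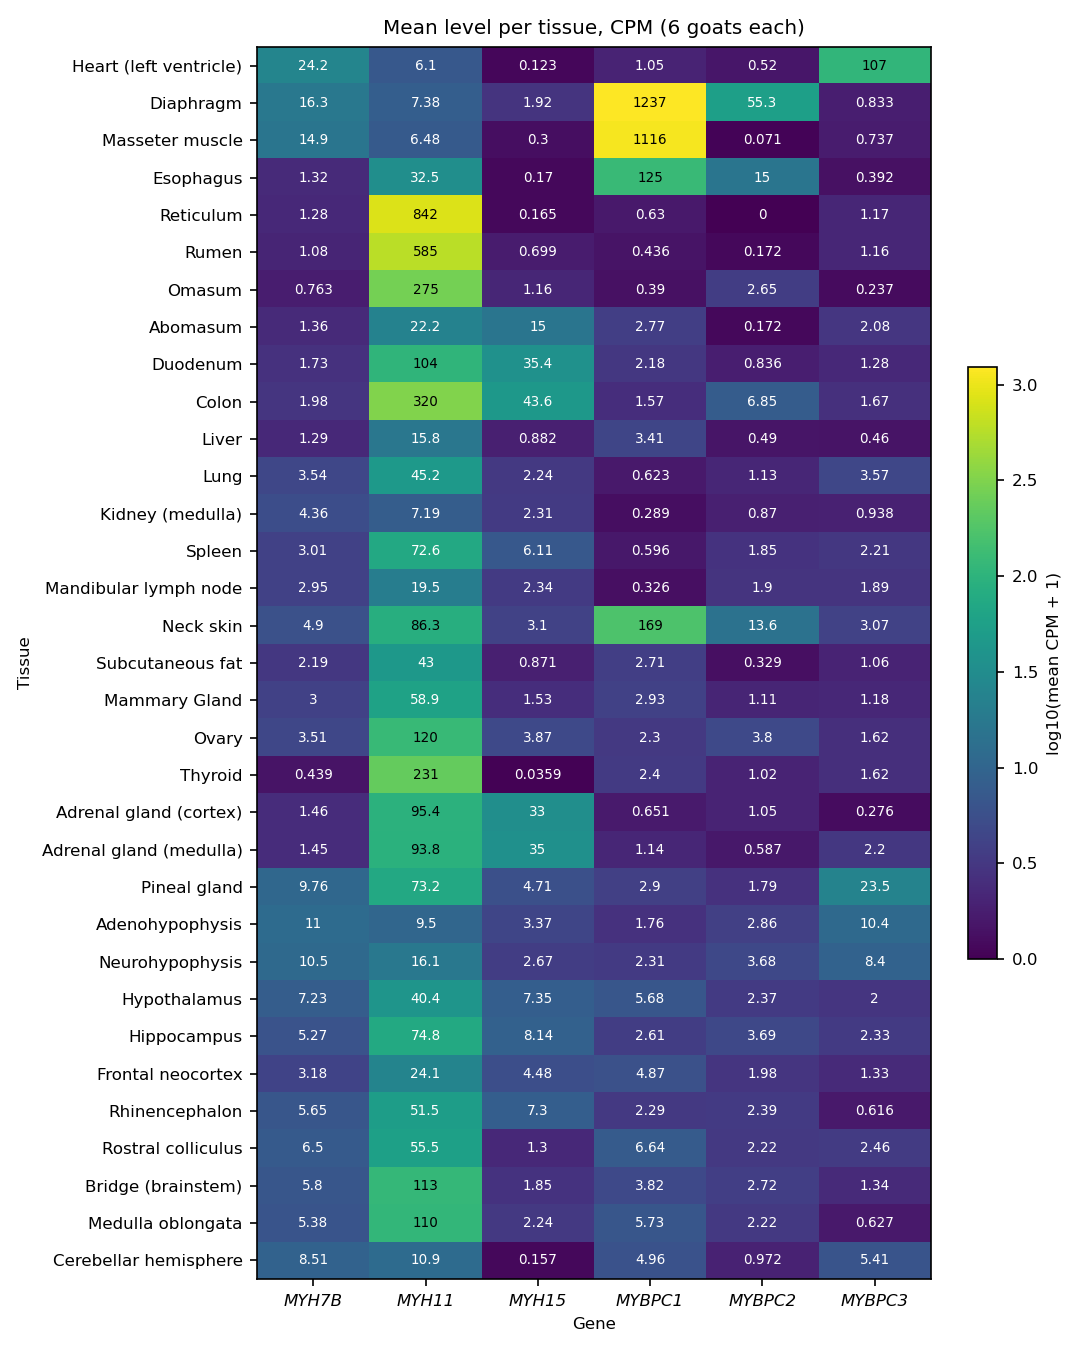
Mean CPM over 6 goats of the 6 genes (columns) in 33 tissues (lines of the map), with the colour on a log scale and the mean printed in each cell. MYBPC1 stands at 1237 CPM in the diaphragm and 1116 CPM in the masseter muscle and MYBPC3 at 107 CPM in the left ventricle, while MYH11 is above 100 CPM in 9 tissues.

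MYBPC1, the slow skeletal binding protein, was abundant in both skeletal muscles. It had 784, 1026 and 1005 CPM in the diaphragm of lactating goats 2, 3 and 6, and 1752, 1349 and 1503 CPM in dry goats 54, 64 and 73. In the masseter, the main chewing muscle, it had 969, 1271 and 1250 CPM in lactating goats and 1177, 1118 and 908 CPM in dry goats. The ranges of the 2 muscles overlapped, with means of 1237 ± 361 CPM in the diaphragm and 1116 ± 149 CPM in the masseter.

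Outside these muscles MYBPC1 was high in 3 libraries, all of which carried the skeletal muscle markers named above. In the esophagus it had 92.3, 0 and 657 CPM in lactating goats and 0 CPM in each dry goat. The neck skin of goat 3 had 1014 CPM, where the other 5 had 0 to 0.452 CPM. Next in order came the rostral colliculus of the midbrain at 6.64 ± 2.04 CPM, the medulla oblongata at 5.73 ± 2.1 CPM and the hypothalamus at 5.68 ± 1.86 CPM, whose ranges overlapped. MYBPC1 had a count in all 48 libraries of the 8 brain regions, whose means ran from 2.29 CPM in the rhinencephalon to 6.64 CPM. In the left ventricle it had 1.05 ± 1.33 CPM.

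MYBPC2, the fast skeletal binding protein, separated the diaphragm from the masseter in every library. It had 46.9, 15.6 and 24.2 CPM in the diaphragm of lactating goats and 69.3, 85.7 and 90.2 CPM in dry goats. In the masseter it had 0, 0.187 and 0 CPM in lactating goats and 0.12, 0 and 0.118 CPM in dry goats. Over its 6 libraries the diaphragm held 1829 counts of MYBPC2 and the masseter 3. The pooled ratio of diaphragm to masseter was 808, with a 95% interval of 276 to 3920 that covers counting error only.

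In edgeR's quasi-likelihood test over the 12 libraries of both muscles, MYBPC2 was higher in the diaphragm by 8.94 ± 0.68 on the log2 scale (± SE, adjusted p = 1.84e-07). The comparison called 2.24% of all features tested in either direction. MYBPC2 was the 1 member called of the 4 tested, and the call held in 12 of 12 alternative settings. MYBPC1 (log2 difference of -0.21, adjusted p = 0.833), MYH7B (-0.19, adjusted p = 0.867) and MYH11 (-0.09, adjusted p = 0.96) were not called between the muscles by the same edgeR test. MYBPC3 and MYH15 had too few counts in these muscles to be tested.

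Set against MYBPC1 in the same library, MYBPC2 had 0, 0.147 and 0 counts per 1000 MYBPC1 counts in the masseter of lactating goats, and 0.102, 0 and 0.13 in dry goats. In the diaphragm the same quantity was 59.8, 15.2 and 24.1 in lactating goats and 39.5, 63.5 and 60 in dry goats. The masseter mean was 0.0633 ± 0.0708 and the diaphragm mean 43.7 ± 20.7, a difference of -43.6 (masseter minus diaphragm, exact permutation test over 12 libraries, two-sided p = 0.00216, the smallest that 6 against 6 can give). This test was added after the data were seen, since MYH2 and MYH7 were not analysed here. MYBPC2 was already apart in every library while MYBPC1 overlapped. The ratio was therefore bound to separate, and this p adds no support to the MYBPC2 result. Within the diaphragm the mean was 33 ± 23.6 in lactating goats and 54.4 ± 13 in dry goats, and the ranges overlapped (exact permutation test, two-sided p = 0.2, where 3 against 3 cannot go below 0.1).

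Unlike in the masseter, MYBPC2 was present in the esophagus and neck skin libraries that carried skeletal muscle markers. It had 19.6, 0 and 70.6 CPM in the esophagus of lactating goats and 0 CPM in each dry goat, and 76.9 CPM in the neck skin of goat 3, where the other 5 had 0.213 to 1.81 CPM. Its level per 1000 MYBPC1 counts was 213 and 107 in the esophagus of goats 2 and 6 and 75.8 in the neck skin of goat 3, above each of the 6 diaphragm libraries. In the omasum of goat 3 it had 13 CPM, where the skeletal muscle markers summed to 199 CPM.

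The colon had MYBPC2 in all 6 goats, at 7.34, 3.94 and 3.15 CPM in lactating goats and 4.74, 8.38 and 13.5 CPM in dry goats. The reticulum had no MYBPC2 count in any library. In the 8 brain regions the means ran from 0.972 CPM in the cerebellar hemisphere to 3.69 CPM in the hippocampus, with a count in 47 of 48 libraries.

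**Figure D2:**
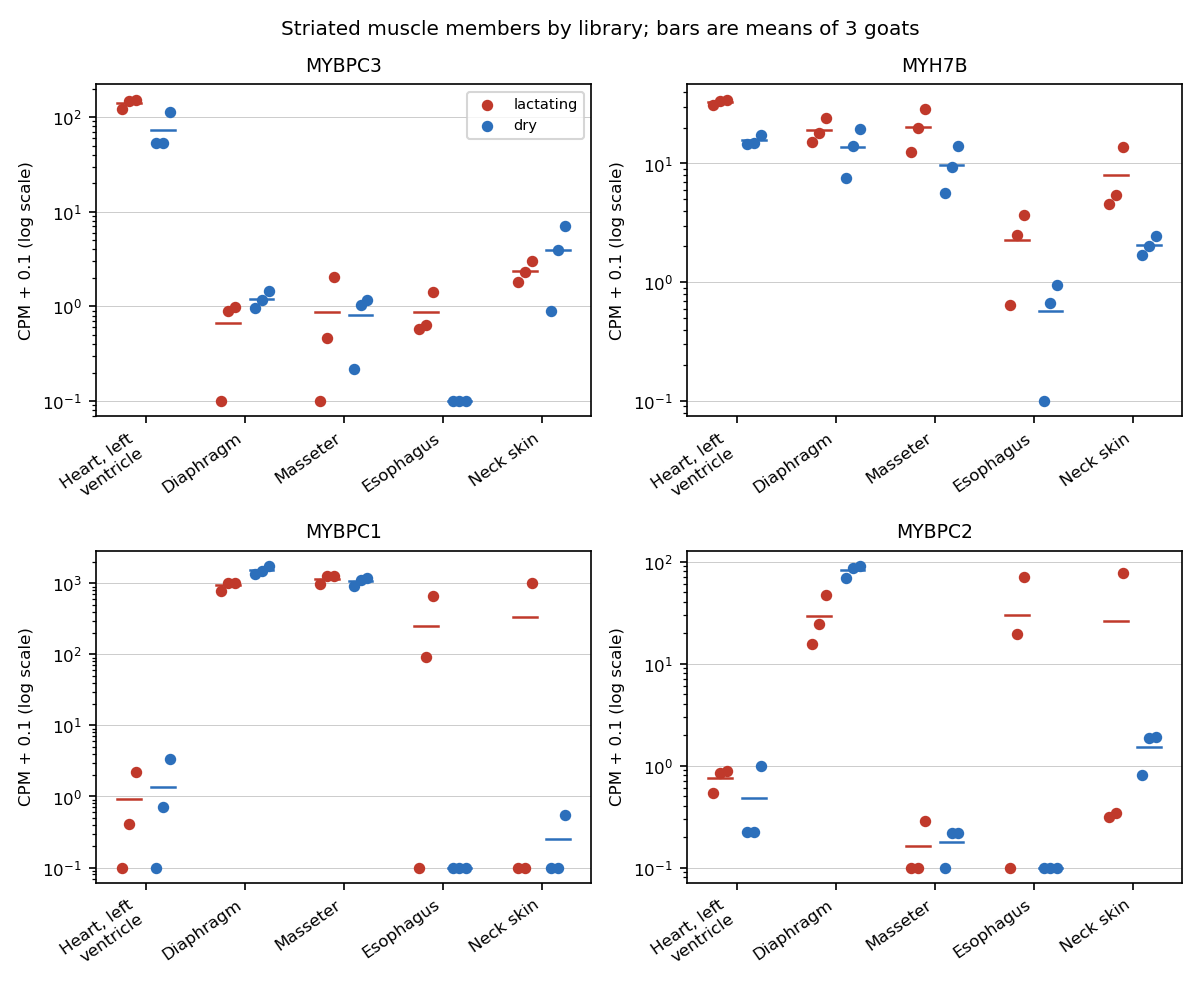
CPM of MYBPC3, MYH7B, MYBPC1 and MYBPC2 in each library of the left ventricle, diaphragm, masseter, esophagus and neck skin, on a log axis with 0.1 added; each point is 1 goat and each bar a mean of 3, lactating goats left of dry goats. MYBPC3 is above 50 CPM only in the heart libraries among these 5 tissues, and MYBPC2 is above 15 CPM in all 6 diaphragm libraries and below 0.2 CPM in all 6 masseter libraries.

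MYBPC3, the cardiac binding protein, stood at 153, 147 and 123 CPM in the left ventricle of lactating goats and at 53.2, 53.6 and 113 CPM in dry goats. Every heart library lay above every other library of the atlas for this gene. The left ventricle, with 107 ± 44.1 CPM, and the next tissue in order, the pineal gland, with 23.5 ± 24.9 CPM, were the only neighbours in rank whose ranges did not overlap for any of the 6 genes. MYBPC3 averaged 0.833 ± 0.458 CPM in the diaphragm and 0.737 ± 0.728 CPM in the masseter.

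After the heart, MYBPC3 was highest in the glands of the head. The adenohypophysis, the hormone-secreting lobe of the pituitary, had 10.4 ± 7.13 CPM and the neurohypophysis, its neural lobe, 8.4 ± 5.49 CPM. The cerebellar hemisphere followed with 5.41 ± 3.29 CPM, and the ranges of these 3 overlapped.

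Between the left ventricle and the diaphragm 4 of the 5 members tested were called, in a comparison that called 16.5% of all features. MYBPC3 was higher in the left ventricle by 7.29 ± 0.43 on the log2 scale (edgeR, adjusted p = 1.1e-09), while MYBPC1 (-9.71 ± 0.73, adjusted p = 2.23e-08) and MYBPC2 (-6.39 ± 0.57, adjusted p = 2.15e-07) were lower there. MYH7B was higher by 0.93 ± 0.24 (edgeR, adjusted p = 0.0124). That last call was lost with scaling by library totals (0.57, adjusted p = 0.186) and without goat 2 (0.79, adjusted p = 0.0551).

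Against the masseter, where 15.2% of all features were called, 2 of the 4 members tested were called. MYBPC3 was higher in the left ventricle by 7.04 ± 0.52 (edgeR, adjusted p = 1.39e-08) and MYBPC1 lower by a log2 difference of -9.90 ± 0.68 (adjusted p = 5.38e-09). MYH7B was not called (0.74 ± 0.27, edgeR adjusted p = 0.0759), and it was called with the goat as a block (adjusted p = 0.0156) or with scale factors taken outside the long noncoding RNAs (0.85, adjusted p = 0.0409). MYBPC2 was too low in both tissues to be tested, with 24 counts in the left ventricle against 3 in the masseter, a ratio of 7.23 (95% counting interval 2.2 to 37.5).

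MYH7B was present in all 3 striated muscles in every goat. It had 34.4, 33.3 and 30.8 CPM in the left ventricle of lactating goats and 17.3, 14.8 and 14.5 CPM in dry goats. The diaphragm had 17.9, 23.9 and 15 CPM in lactating goats and 7.5, 19.4 and 14 CPM in dry goats. The masseter had 12.3, 19.9 and 28.5 CPM in lactating goats and 9.28, 5.54 and 13.8 CPM in dry goats. The ranges of the 3 muscles overlapped. MYH7B was next highest in the adenohypophysis (11 ± 6.04 CPM), the neurohypophysis (10.5 ± 4.33 CPM) and the pineal gland (9.76 ± 6.76 CPM), and it had a count in all 48 brain libraries, with regional means from 3.18 to 8.51 CPM.

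The partner genes of the sarcomere showed a like split between the muscles. Of the 9 tested genes of the fast fibre list, 6 were higher in the diaphragm than in the masseter and 0 lower, with a median log2 difference of 5.72 where the median over all features was 0.00. The fast troponin genes TNNC2 and TNNI2, the calcium sensor and the inhibitory subunit, averaged 194 ± 137 and 329 ± 193 CPM in the diaphragm, against 0.0201 ± 0.0492 and 0.181 ± 0.246 CPM in the masseter. ATP2A1, the calcium pump of fast fibres, averaged 116 ± 32.9 CPM in the diaphragm and 0.313 ± 0.574 CPM in the masseter, and MYLPF, the fast regulatory light chain, 80.3 ± 55.3 CPM in the diaphragm and 0.112 ± 0.175 CPM in the masseter. MYOM2, an M band protein, was the 1 gene called of 10 tested in the thick filament list (log2 difference of 6.49 ± 0.53, edgeR adjusted p = 5.35e-07).

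In the slow fibre list 1 of 10 tested genes was higher in the diaphragm and 3 were lower, with a median log2 difference of -0.44. MYL3, a light chain of slow and ventricular myosin, averaged 1.88 ± 2.15 CPM in the diaphragm and 367 ± 121 CPM in the masseter (-7.88 ± 0.57, edgeR adjusted p = 1.12e-07). The gene that went the other way was MYL6B, an essential light chain, with 144 ± 81 CPM in the diaphragm and 3.56 ± 4.96 CPM in the masseter. CASQ2, the calcium store protein of slow and cardiac muscle, averaged 12.9 ± 8.45 CPM in the diaphragm and 36.2 ± 16.4 CPM in the masseter, and ATP2A2, the calcium pump of the same fibres, 816 ± 93.1 CPM in the diaphragm and 1255 ± 558 CPM in the masseter. None of 10 tested smooth muscle genes and none of 3 other heavy chains tested (MYH9, MYH10 and MYH14, the non-muscle ones) was called, and the cardiac list gave 1 lower gene of 2 tested, MYLK3, a light chain kinase (-1.85 ± 0.39).

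In the left ventricle against the diaphragm, all 6 tested cardiac partners were higher, with a median log2 difference of 8.16 where all features had -0.02 (6.94 with NPPA, at 0 in every diaphragm library, at its bound against 3 counts). RYR2, the cardiac calcium release channel, averaged 606 ± 140 CPM in the left ventricle and 1.21 ± 1.81 CPM in the diaphragm, and TNNT2, cardiac troponin T, 530 ± 56.3 CPM in the left ventricle and 1.19 ± 0.929 CPM in the diaphragm. All 9 tested fast partners were lower in the left ventricle (median -7.39), and of 10 slow partners 3 were higher and 6 lower. TNNT1, slow skeletal troponin T, averaged 0.826 ± 0.453 CPM in the left ventricle and 1207 ± 425 CPM in the diaphragm, and MYL3 235 ± 27.3 CPM in the left ventricle and 1.88 ± 2.15 CPM in the diaphragm. The giant protein titin (TTN) was lower in the left ventricle (-1.55 ± 0.18, edgeR adjusted p = 4.31e-06).

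Against the masseter, 4 of 6 tested cardiac partners were higher in the left ventricle, 4 of 4 fast partners lower, and of 9 slow partners 2 were higher and 5 lower. MYOM2 averaged 53.7 ± 29.1 CPM in the left ventricle and 0.349 ± 0.364 CPM in the masseter (7.28 ± 0.50, edgeR adjusted p = 5.03e-09).

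MYH11, the smooth muscle heavy chain, was highest in the forestomach. The reticulum had 1007, 1334 and 750 CPM in lactating goats and 153, 997 and 813 CPM in dry goats. The rumen had 363, 742 and 336 CPM in lactating goats and 1402, 315 and 350 CPM in dry goats. Goat 54, low in the reticulum and high in the rumen, is the goat whose markers stood apart in both tissues. The colon had 371, 374 and 237 CPM in lactating goats and 512, 220 and 210 CPM in dry goats, and the omasum 292, 124 and 269 CPM in lactating goats and 258, 249 and 457 CPM in dry goats.

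The other gut segments were lower. The duodenum had 122, 96.2 and 73.9 CPM in lactating goats and 228, 40.4 and 65.1 CPM in dry goats. The esophagus had 21.3, 32.8 and 14.1 CPM in lactating goats and 42, 53.1 and 31.6 CPM in dry goats. The abomasum, the glandular stomach, had 9.77, 38.1 and 30.6 CPM in lactating goats and 19.6, 15.6 and 19.9 CPM in dry goats. All 6 abomasum libraries lay below all 6 libraries of the duodenum, omasum, colon, rumen and reticulum.

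Outside the gut MYH11 was highest in the thyroid, with 355, 293 and 379 CPM in lactating goats and 62, 217 and 81.8 CPM in dry goats. The smooth muscle marker sum there was 8.37 to 18.1 CPM with ACTG2, the enteric smooth muscle actin, at 0 CPM in 5 of 6 libraries, and TG, the thyroid hormone precursor, was at 7375 to 21457 CPM. The bridge of the brainstem (113 ± 35.1 CPM) and the medulla oblongata (110 ± 31.8 CPM) followed the ovary (120 ± 73.2 CPM). MYH11 was lowest in the left ventricle, at 6.1 ± 4.18 CPM.

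**Figure D3:**
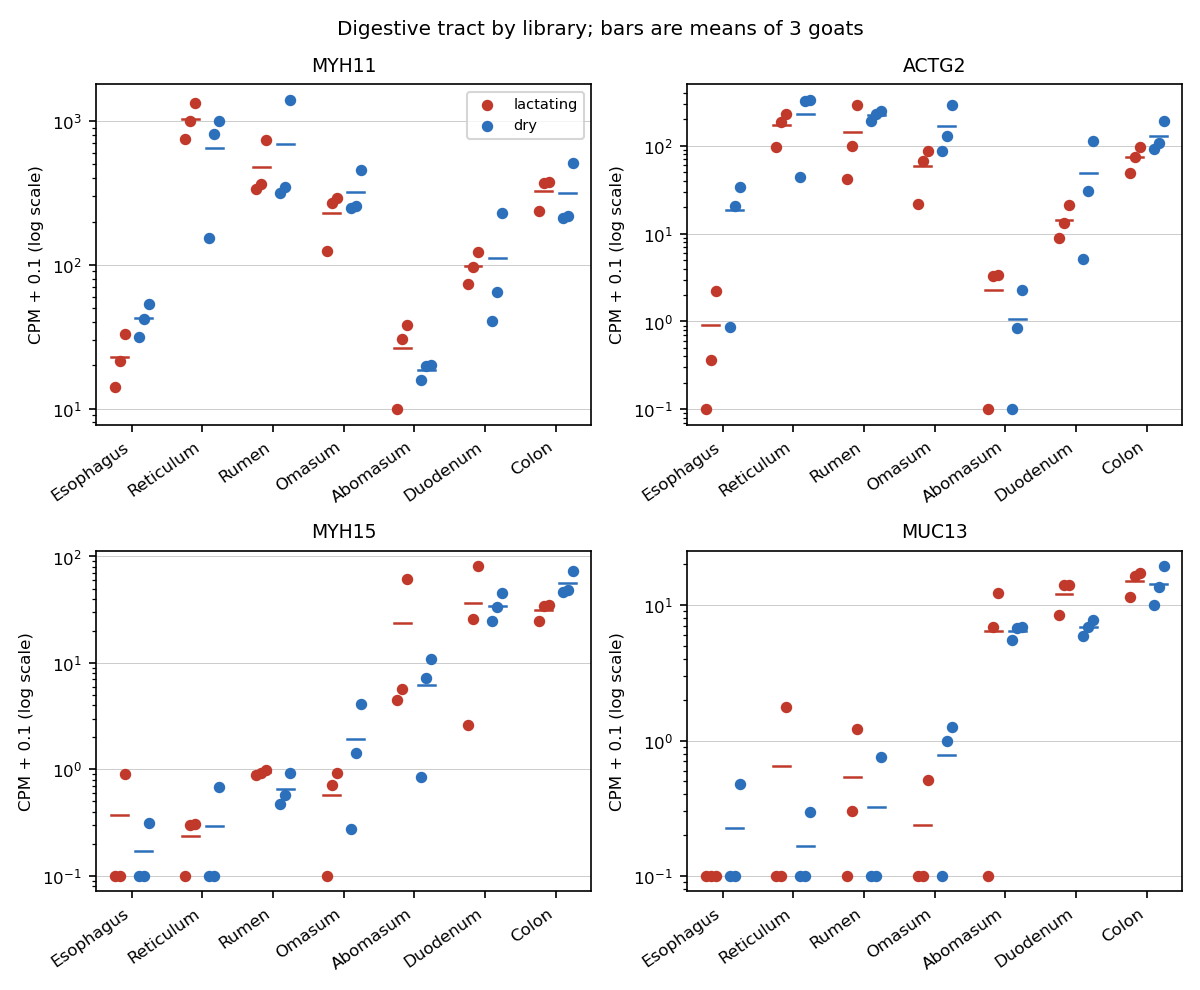
CPM of MYH11, the smooth muscle actin ACTG2, MYH15 and the epithelial mucin MUC13 along 7 gut segments from esophagus to colon, on a log axis with 0.1 added; each point is 1 goat and each bar a mean of 3, lactating goats left of dry goats. MYH11 is lowest in the esophagus and abomasum, and MYH15 averages 1.16 CPM or less in the 4 segments before the abomasum.

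Along the gut, neighbouring segments were compared over 6 goats each. In the esophagus MYH11 was lower than in the reticulum by a log2 difference of -4.43 ± 0.46 (edgeR, adjusted p = 8.33e-05), in a comparison that called 3.39% of all features. It was the 1 member called, and the difference was -4.17 (adjusted p = 0.00148) without goats 2 and 6, whose esophagus carried skeletal muscle markers. The esophagus libraries left in that run had squamous epithelium markers at 793 to 7314 CPM, where goat 6 had 0 CPM. The part of tissue content in the MYH11 difference was not tested. MYBPC2 in the esophagus was at least 135-fold higher than in the reticulum, where it had no count (bound against 3 counts over the group), and all of it came from goats 2 and 6.

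Within the forestomach no member was called. MYH11 in the rumen differed from the reticulum by -0.57 ± 0.40 (edgeR, adjusted p = 1, unadjusted p = 0.172), where 0.0933% of all features were called. Without goat 54 the log2 difference was -1.16 with an adjusted p of 0.0242. The omasum differed from the reticulum by -1.51 ± 0.37 (edgeR, adjusted p = 0.159, unadjusted p = 0.00068), where 0.122% of all features were called. That difference was called with DESeq2 (adjusted p = 0.00758), without the filter on low counts (adjusted p = 0.0273) and without goat 54 (-1.73, adjusted p = 0.0176).

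The abomasum had less MYH11 than the omasum, by a log2 difference of -3.69 ± 0.37 (edgeR, adjusted p = 6.38e-06) that was called in 12 of 12 alternatives. This comparison called 15.5% of all features and 2 members, the other being MYH15. The duodenum had more MYH11 than the abomasum in every library, with a log2 difference of 2.01 ± 0.43, but missed the threshold (edgeR, adjusted p = 0.103, unadjusted p = 0.000321). Only 0.0362% of all features passed in that pair and no member did. Without goat 2, whose abomasum library was low in epithelial, smooth muscle, endothelium and immune markers, 1290 features were called. MYH11 was among them (1.81, edgeR adjusted p = 0.00699).

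The colon had more MYH11 than the duodenum, by 1.50 ± 0.36 (edgeR, adjusted p = 0.0208), and 4.86% of all features and 2 members were called. The call was lost without goat 3, 6, 64 or 73, with adjusted p of 0.0707, 0.0646, 0.052 and 0.059 in that order. With the goat as a block the difference was 1.67 (edgeR, adjusted p = 0.000129). MYBPC2 was the other member called, higher in the colon by 2.98 ± 0.62 (edgeR, adjusted p = 0.00748), with no overlap between the segments and a call in 12 of 12 alternatives. It averaged 6.85 ± 3.85 CPM in the colon and 0.836 ± 0.909 CPM in the duodenum.

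Most contractile genes of the smooth muscle list were lower in the esophagus and abomasum and higher in the colon, as MYH11 was. In the esophagus against the reticulum, 9 of 14 were lower and 0 higher, with a median log2 difference of -2.85 against 0.04 over all features, and 7 of 14 were lower without goats 2 and 6. MYL9, the smooth muscle regulatory light chain, averaged 1.6 ± 2.2 CPM in the esophagus and 69.4 ± 41.9 CPM in the reticulum. Its kinase MYLK averaged 8.86 ± 11.4 CPM in the esophagus and 339 ± 267 CPM in the reticulum. In the rumen 1 of 14 was lower than in the reticulum, ACTA2, the vascular smooth muscle actin (10.3 ± 12.9 CPM in the rumen and 112 ± 50.7 CPM in the reticulum), and in the omasum 0 of 14 were called.

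In the abomasum against the omasum, 12 of 14 were lower and 0 higher (median -3.56). DES, the intermediate filament protein desmin, averaged 1.02 ± 0.66 CPM in the abomasum and 116 ± 71.6 CPM in the omasum, and ACTG2 1.57 ± 1.53 CPM in the abomasum and 114 ± 92.6 CPM in the omasum. In the duodenum against the abomasum, 1 of 13 was higher, DES with 19.2 ± 16.2 CPM in the duodenum, and 4 of 13 were higher without goat 2. In the colon against the duodenum, 9 of 14 were higher and 0 lower (median 1.47), among them SMTN, smoothelin, with 80.5 ± 27.1 CPM in the colon and 13.6 ± 10.1 CPM in the duodenum, and CNN1, calponin, with 69.3 ± 24 CPM in the colon and 13.4 ± 9.6 CPM in the duodenum.

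MYH15 had its highest levels in the intestine and the adrenal gland. The colon had 34.8, 34.5 and 24.6 CPM in lactating goats and 48.4, 72.6 and 46.5 CPM in dry goats, and the duodenum 2.53, 25.8 and 80.5 CPM in lactating goats and 45.1, 24.8 and 33.6 CPM in dry goats. The adrenal medulla averaged 35 ± 27 CPM and the adrenal cortex 33 ± 12.8 CPM. The ranges of these 4 tissues overlapped. The heart, a striated muscle, had 0.123 ± 0.246 CPM, and MYH15 was not detected in 32 libraries of the atlas.

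In the abomasum MYH15 was uneven, with 61.6, 4.38 and 5.56 CPM in lactating goats and 0.745, 10.7 and 7.08 CPM in dry goats. The highest library is that of goat 2, whose glandular epithelium, smooth muscle, endothelium and immune markers were low. MYH15 was called higher in the abomasum than in the omasum (3.37 ± 0.94, edgeR adjusted p = 0.0236). The call was lost with the goat as a block (edgeR adjusted p = 0.0832) and without goats 2 (2.14, adjusted p = 0.0869), 6 (0.0572), 64 (0.0695) or 73 (0.0583). Between duodenum and abomasum it was not called (1.11 ± 0.78, edgeR adjusted p = 0.863), and without goat 2 it was higher in the duodenum (2.56, adjusted p = 0.00127). Between colon and duodenum it was not called (0.27 ± 0.48, edgeR adjusted p = 0.862).

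Lactating and dry goats were compared within each tissue, 3 against 3. Of 198 pairs of gene and tissue, 109 had enough counts to be tested, and 9 were called, 1 higher and 8 lower in lactating goats. Over all features 1.9% of such pairs were called. Without the pineal gland, whose lactating libraries lacked its marker, 7 were called. Of the 159 pairs with a mean of at least 1 CPM, lactating goats lay above dry goats in every library in 20, where 12% of all such pairs did so, and below in 23, where 7.22% of all such pairs did so. MYBPC3 in the pineal gland was the 1 pair of the 9 called in all 11 alternatives.

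MYBPC3 in the pineal gland had 0.602, 1.46 and 0.629 CPM in lactating goats and 50.5, 43.4 and 44.6 CPM in dry goats, with no overlap (-5.38 ± 0.35, edgeR adjusted p = 0.000206). The pineal comparison called 7.97% of all features, the most of the 6 tissues in which a member was called. MYH7B was also lower there, with 2.61, 4.8 and 3.77 CPM in lactating goats and 18, 14.6 and 14.7 CPM in dry goats (-1.81 ± 0.36, edgeR adjusted p = 0.0208). That call was lost with scale factors taken outside the long noncoding RNAs (0.0583) and without goats 2, 54, 64 or 73 (edgeR adjusted p of 0.0856 to 0.122). The lactating pineal libraries are those in which TPH1 was at 0 to 0.419 CPM, and ASMT, the last enzyme of melatonin synthesis, was at 0, 0.835 and 0 CPM in them against 19.7, 8.44 and 11.1 CPM in dry goats. The part of tissue content in these differences was not tested. KCNMB1, a subunit of the calcium-gated potassium channel, averaged 14.3 ± 4.22 CPM in the lactating and 1172 ± 81.6 CPM in the dry pineal glands, and MYBPH, a binding protein related to the MYBPC genes, 493 ± 180 CPM in lactating and 84.8 ± 13.6 CPM in dry goats.

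In the diaphragm both skeletal binding proteins were lower in lactating goats, and 2.33% of all features were called. MYBPC2 averaged 28.9 ± 16.2 CPM in lactating goats and 81.7 ± 11 CPM in dry goats (-1.70 ± 0.35, edgeR adjusted p = 0.0244), with no overlap. The call was lost without goats 6, 54, 64 or 73 (adjusted p of 0.0617 to 0.0814). MYBPC1 averaged 939 ± 134 CPM in lactating goats and 1535 ± 203 CPM in dry goats (-0.97 ± 0.24, edgeR adjusted p = 0.046). That call held with DESeq2 and without the low-count filter, and was lost under the other scalings (0.0532 to 0.122) and without each of the 6 goats (0.0551 to 0.179).

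Among the partners in the diaphragm, 7 of 9 tested fast fibre genes were lower in lactating goats and 0 higher (median -1.61), as were 4 of 10 slow fibre genes (median -1.04), where the median of all features was 0.00. TNNC2 averaged 73.7 ± 29.4 CPM in lactating and 314 ± 51.8 CPM in dry goats, and MYLPF 33 ± 20 CPM in lactating and 128 ± 23.2 CPM in dry goats. The skeletal marker sum overlapped between the states, with 8258, 9872 and 7898 CPM in lactating goats and 9699, 9856 and 9536 CPM in dry goats. That holds for the sum and not for each gene in it. CKM, of that list, had 958, 677 and 1322 CPM in lactating goats and 2007, 1933 and 1594 CPM in dry goats. MYLPF, also of the list, was lower too, and the other genes of the list are not given singly here. The endothelium markers (VWF, PECAM1 and CDH5) did not overlap, with 47.7, 37.7 and 51.4 CPM in lactating goats and 4.54, 15.1 and 9.41 CPM in dry goats, and their part in the result was not tested.

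In the adrenal cortex, where 3.43% of all features were called, MYH11 was the 1 member higher in lactating goats. It had 198, 176 and 74.4 CPM in lactating goats and 48, 34 and 42.1 CPM in dry goats (1.67 ± 0.33, edgeR adjusted p = 0.0198). The smooth muscle marker sum was 20.2, 17.5 and 19.6 CPM in lactating goats and 3.38, 25.4 and 11.4 CPM in dry goats, so it overlapped. MYH15 went the other way, with 22.5, 20.1 and 25.2 CPM in lactating goats and 46.8, 49.9 and 33.9 CPM in dry goats (-1.15 ± 0.22, edgeR adjusted p = 0.0151). The skeletal muscle markers did not overlap in this tissue, with 19.5, 33.2 and 16.8 CPM in lactating goats and 4.09, 11.3 and 12.3 CPM in dry goats. Nor did the cardiomyocyte markers, with 3.12, 3.21 and 3.23 CPM in lactating goats and 26.1, 12.6 and 6.71 CPM in dry goats. Of that list RYR2 averaged 1.95 CPM in lactating and 11.1 CPM in dry goats. The list is not particular to heart muscle, with sums of 57.9 to 78.7 CPM in the cerebellar hemisphere. Adipocyte markers in the adrenal cortex did not overlap either, with 12.8, 11.3 and 13.5 CPM in lactating goats and 9.37, 2.81 and 5.74 CPM in dry goats. The part of these markers was not tested. The MYH11 call was lost without goats 2, 3, 54, 64 or 73 (adjusted p of 0.0641 to 0.0988), and the MYH15 call without goats 3, 54 or 64 (0.0594 to 0.0732).

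MYH15 was lower in lactating goats in 2 more tissues. The colon averaged 31.3 ± 5.82 CPM in lactating goats and 55.8 ± 14.5 CPM in dry goats (-1.11 ± 0.25, edgeR adjusted p = 0.035), where 2.59% of all features were called. The colon's immune markers (PTPRC, CD3E and JCHAIN) did not overlap, with 2193, 1711 and 2512 CPM in lactating goats and 1555, 1086 and 975 CPM in dry goats. Nor did its endothelium markers, with 26.1, 41.1 and 24.1 CPM in lactating goats and 10.5, 15.4 and 7.62 CPM in dry goats, or its skeletal muscle markers, with 38.6, 20.7 and 35.3 CPM in lactating goats and 19.6, 11.2 and 6.98 CPM in dry goats. The part of these markers in the MYH15 result was not tested. The adenohypophysis had 0.657, 0.231 and 0.484 CPM in lactating goats and 6.47, 5.93 and 6.47 CPM in dry goats (-3.49 ± 0.68, edgeR adjusted p = 0.0157), where 2.83% of all features were called. In the adenohypophysis the glandular epithelium markers did not overlap, with 24.7, 27 and 31 CPM in lactating goats and 17, 19.1 and 21.9 CPM in dry goats. Nor did the adipocyte markers there, with 11.2, 4.71 and 9.34 CPM in lactating goats and 19.7, 22.6 and 13.8 CPM in dry goats. The part of both lists was not tested. The colon call was lost with library totals (0.103), with the deposited offsets (0.0515) and without goats 2, 3, 6 or 64 (adjusted p of 0.106 to 0.132), and the adenohypophysis call without goats 2, 3, 6, 54 or 73 (0.0526 to 0.0688).

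In the rostral colliculus MYH11 had 23.3, 33.8 and 41.2 CPM in lactating goats and 82.6, 83.9 and 68.1 CPM in dry goats (-1.18 ± 0.19, edgeR adjusted p = 0.0312), where 0.14% of all features were called. The smooth muscle marker sum there overlapped, with 6.12, 18.4 and 8.01 CPM in lactating goats and 9.8, 7.97 and 5.03 CPM in dry goats. The call was lost without goats 2, 3 or 54 (adjusted p of 0.08 to 0.144).

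**Figure D4:**
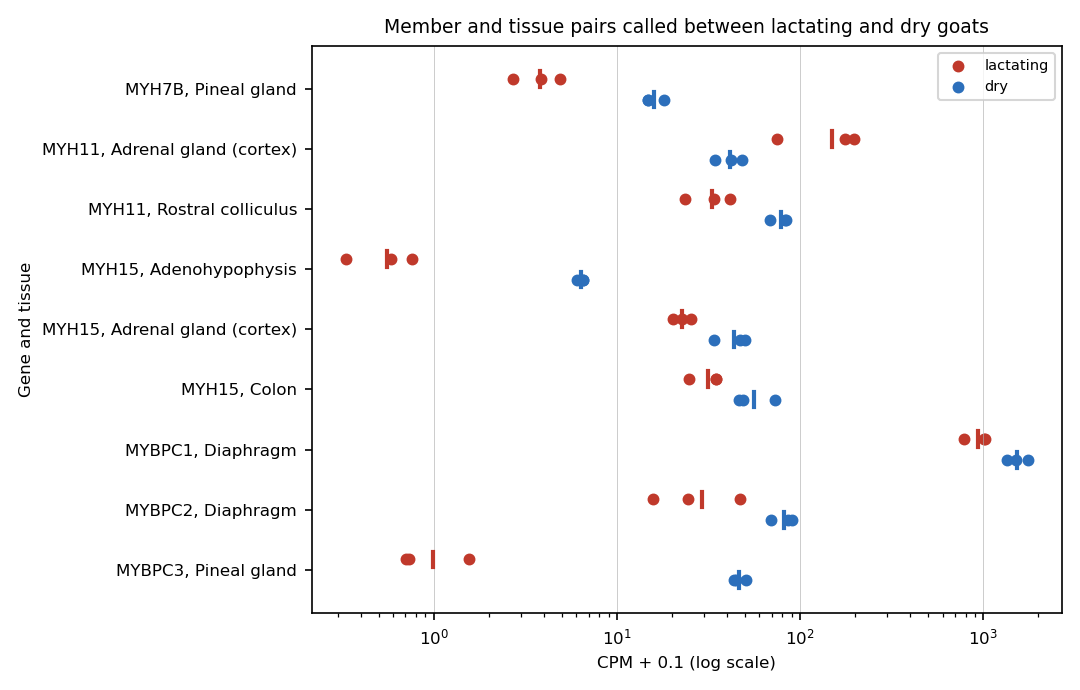
CPM plus 0.1 on a log axis of the 9 called pairs of gene and tissue, lactating goats above dry goats in each pair; each point is 1 goat and each bar a mean of 3. The states do not overlap in any of the 9, and MYH11 in the adrenal cortex is the 1 pair with the higher levels in lactating goats.

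In the left ventricle, where 2.87% of all features were called, none of the 3 members tested was called between the states by edgeR. An unadjusted edgeR p under 0.05 was found for 2 of these 3, and for 2924 of the 16292 features tested. MYH7B averaged 32.8 ± 1.83 CPM in lactating goats and 15.5 ± 1.55 CPM in dry goats without overlap (0.83 ± 0.24, edgeR adjusted p = 0.0785). It was the 1 member called with DESeq2, and was also called with library totals. MYBPC3 averaged 141 ± 15.9 CPM in lactating goats and 73.3 ± 34.5 CPM in dry goats (0.65 ± 0.31, edgeR adjusted p = 0.292), and was called without goat 73 (adjusted p = 0.0138). The endothelium markers there did not overlap, with 33, 48.5 and 52 CPM in lactating goats and 18.3, 14.1 and 18.6 CPM in dry goats. Nor did the sum of the smooth muscle list, with 147, 251 and 208 CPM in lactating goats and 90.2, 106 and 112 CPM in dry goats. That list includes DES, and MYH11 had its lowest tissue mean here (6.1 CPM), so the sum is not read as smooth muscle content. Immune markers did not overlap, with 1.62, 4.58 and 4.57 CPM in lactating goats and 4.92, 15 and 12.2 CPM in dry goats. Schwann cell markers did not overlap either, with 4.48, 2.21 and 1.62 CPM in lactating goats and 1.35, 0.123 and 1.34 CPM in dry goats. The cardiomyocyte marker sum overlapped, and the part of these markers was not tested. Of the thick filament partners there, MYOM2 was higher in lactating goats, with 78.4 ± 16 CPM in lactating and 28.9 ± 4.39 CPM in dry goats (1.18 ± 0.24, edgeR adjusted p = 0.0174). In the masseter MYOM3, another M band protein, was higher in lactating goats, with 65.1 ± 2.31 CPM in lactating and 19.1 ± 5.3 CPM in dry goats (1.26 ± 0.23, edgeR adjusted p = 0.0194). In the masseter the skeletal marker sum also separated the states, with 8853, 7902 and 10755 CPM in lactating goats and 5405, 5371 and 5933 CPM in dry goats, as did the endothelium markers, with 38, 74.2 and 49.1 CPM in lactating goats and 9.64, 15 and 9.69 CPM in dry goats. So did the sum of the smooth muscle list, with 217, 252 and 295 CPM in lactating goats and 119, 76.1 and 125 CPM in dry goats. The adipocyte and Schwann cell sums were also higher in every lactating masseter library than in every dry one. The part of these lists in the masseter result was not tested.

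The genes whose tissue pattern was most like each member were ranked by Pearson's r over 33 tissue means of log2(CPM + 1), among 19756 features outside the long noncoding RNAs. The points share libraries, goats and depth, and the values are a description. For MYBPC1 they were LOC102177638 (r = 0.946), KCNA7, a potassium channel (0.946), and LOC106502397 (0.943). For MYBPC2 they were FAM71E1 (0.825), ACTN3, the actinin of fast fibres (0.778), and MYL6B (0.764). For MYBPC3 they were MADD (0.924), C21H14orf180 (0.792) and NPPA, the atrial natriuretic peptide (0.782). For MYH7B they were ASB8 (0.854), PFKM, the muscle phosphofructokinase (0.849), and ATP13A5 (0.823).

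For the smooth muscle heavy chain MYH11 the list was headed by NDE1, a partner of the dynein motor (0.853), PLD1, a phospholipase (0.820), and ENAH, an actin regulator (0.781). The smooth muscle genes CNN1 (0.753), ACTG2 (0.712), TAGLN (0.696) and MYL9 (0.671) came lower in that order and DES at 0.199. For MYH15 it was headed by LOC102170172 (0.802), HHLA2, of the B7 family of immune ligands (0.797), and MUC13, an epithelial mucin (0.765).

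Of the 6 genes, 4 had a gene beside them on the chromosome, by the RefSeq order of assembly ARS1.2, among their most alike: NDE1 beside MYH11 (rank 1 of 19756), HHLA2 beside MYH15 (rank 2), FAM71E1 beside MYBPC2 (rank 1) and MADD beside MYBPC3 (rank 1). The gene on the other side was far lower in rank for MYH11 (FOPNL, 0.481), MYH15 (KIAA1524, 0.219) and MYBPC3 (SPI1, 0.052), and at rank 30 for MYBPC2 (SPIB, 0.566). Neither neighbour of MYH7B (GSS at -0.356 and TRPC4AP at -0.087) or of MYBPC1 (SPIC at -0.429 and CHPT1 at 0.181) was alike.

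**Figure D5:**
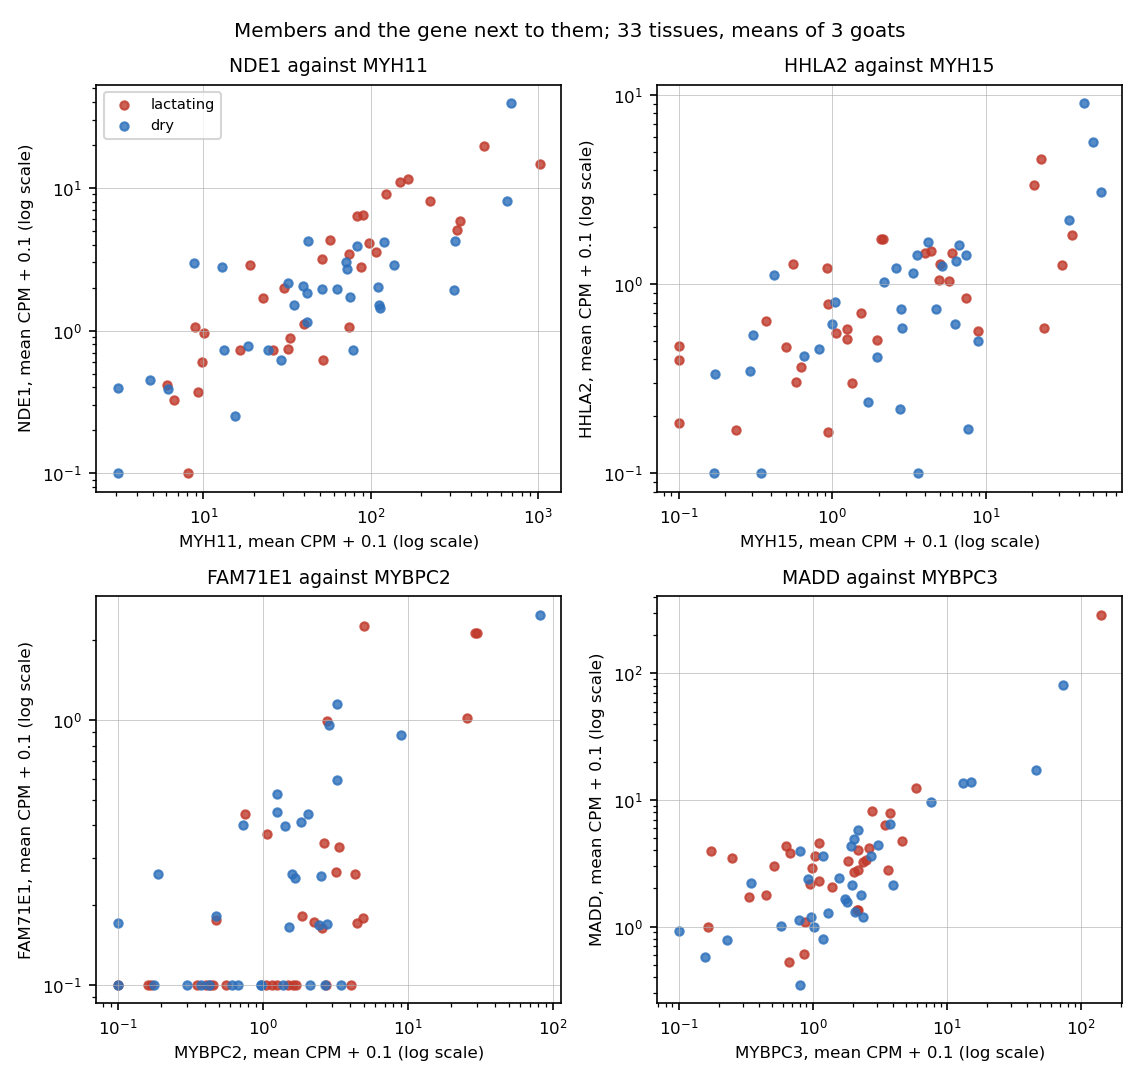
Tissue levels of 4 members against a gene beside each on the chromosome, both axes CPM + 0.1 on log scales; each point is 1 tissue and state, the mean of 3 goats. MADD reaches its highest level in the left ventricle, as MYBPC3 does (r = 0.924 over 33 tissue means), and NDE1 in the rumen.

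MADD, an activator of Rab GTPases, was also highest in the left ventricle. It averaged 187 ± 124 CPM in the left ventricle and 0.558 ± 0.396 CPM in the diaphragm (8.60 ± 0.53, edgeR adjusted p = 2.22e-09). In the left ventricle it had 303, 356 and 218 CPM in lactating goats and 90.9, 65.1 and 86.5 CPM in dry goats, and was called higher in lactating goats (1.58 ± 0.24, edgeR adjusted p = 0.00239). In the pineal gland it had 3.01, 5.43 and 0 CPM in lactating goats and 15.7, 14.6 and 21.6 CPM in dry goats, which was not called (-2.36 ± 0.89, edgeR adjusted p = 0.174).

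NDE1 was lower in the abomasum than in the omasum (-3.19 ± 0.60, edgeR adjusted p = 0.0017) and higher in lactating than in dry goats in the adrenal cortex (2.50 ± 0.62, edgeR adjusted p = 0.049), as MYH11 was. Its level in the rumen of goat 54, the library with 1402 CPM of MYH11, was 96.2 CPM. FAM71E1 averaged 2.21 CPM in the diaphragm and was at 0 in every masseter library. It had 2.96 and 3.11 CPM in the esophagus of goats 2 and 6 and 2.75 CPM in the neck skin of goat 3, the libraries that carried MYBPC2. HHLA2 in the adrenal cortex averaged 4.48 ± 1.35 CPM in lactating goats and 8.97 ± 0.431 CPM in dry goats, which was not called (-1.19 ± 0.39, edgeR adjusted p = 0.119). The RefSeq models of the members overlap none of these neighbours. The labels do not say whether counting used the strand or how reads that run past a gene's end were assigned, and the part of such reads in these likenesses was not tested.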

How the data were processed

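Total RNA was extracted with the RiboPure kit and made into strand-specific VAHTS libraries, per the labels' protocols. STAR, StringTie and edgeR are named in the submitters' processing notes, without versions or roles. The genome build was not given in the sources used here. The authors deposited estimated counts per gene, of which 36.9% of the values above 0 had a fractional part (tolerance 1e-6), natural log offsets that combine the size of a library with the length of a gene, and a tau score given as a fraction. Tau is printed as the authors' value, and the offsets served as an alternative scaling. Of 25223 features outside the lncRNA annotation, 23489 matched RefSeq symbols (ARS1.2), used for names and neighbours. No 2 libraries of a tissue were alike within sampling noise (lowest chi-square per feature 2.72).

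CPM was computed here from library totals. Counts were rounded and tested with edgeR 4.0.16 in R 4.3.3 (filterByExpr with a minimum count of 10, TMM, quasi-likelihood test, two-sided, Benjamini-Hochberg over all features at 0.05), within each tissue for state and over 12 libraries for a pair of tissues. The fits were tested on simulated data. Alternatives were DESeq2 1.42.0, no filter, TMM outside lncRNAs, library totals, the deposited offsets, each goat left out and the goat as a block. Tissue pairs share goats by design, so goat numbers pair the libraries, while the fits reported leave the block out. Residuals of the same goat correlated between tissues with r of 0.14 to 0.346 for left ventricle and diaphragm, and as low as -0.309 for duodenum and abomasum. "Higher" and "lower" of a list's genes mean called at 0.05. Named beyond the members were the 3 most alike features per member and up to 4 called genes of each list per comparison, by largest change; the genes beside the members and TPH1, ASMT and TG were added after their values were seen. The deposited CPM-named table was not used, and the lncRNA annotation only sorted features. Of the thick filament list, 1 gene is not reported here. The planned share of MYH7 in MYH7 plus MYH2 was not computed. The members and lists were chosen with earlier results of these data known. Intervals and floors cover counting error only.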

Additional observations from a re-analysis of the deposited data

Results flagged for a closer look

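In 8 of 71 groups of 6 libraries with a mean of at least 5 CPM, 1 library lay far from the other 5. The measure was Dixon's ratio on CPM, with a cutoff of 0.625. That cutoff has a known chance rate only for normal values, which CPM need not follow, so the count is not set against chance. In all 8 groups the library was the highest. For 4 of them the library carried skeletal muscle markers. MYBPC1 was at 657 CPM in the esophagus of goat 6 (next 92.3 CPM) and at 1014 CPM in the neck skin of goat 3 (next 0.452 CPM). MYBPC2 was at 70.6 CPM in the esophagus of goat 6 (next 19.6 CPM) and at 76.9 CPM in the neck skin of goat 3 (next 1.81 CPM). MYH15 was at 61.6 CPM in the abomasum of goat 2 (next 10.7 CPM). MYH11 was at 29.3 CPM in the liver of goat 3 (next 16.5 CPM) and at 45.8 CPM in the neurohypophysis of goat 73 (next 14.6 CPM). MYH7B was at 15.2 CPM in the hypothalamus of goat 64 (next 6.89 CPM).

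Among tissues with a mean of at least 5 CPM, the states separated in opposite directions in different tissues for 3 genes, and the difference was not tested. On the scale of log2(CPM + 1) of the means, the lactating minus dry difference of MYBPC3 was 0.93 in the left ventricle and -4.64 in the pineal gland, 5.57 apart. That of MYH11 was 1.83 in the adrenal cortex and -1.80 in the pineal gland, 3.63 apart. That of MYH7B was 1.03 in the left ventricle and -1.83 in the pineal gland, 2.86 apart. Each is the widest such pair of the gene under that limit, and each includes the pineal gland, whose lactating libraries lacked TPH1.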

How the results depend on the processing

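No called result reversed its direction under any alternative run. The count of 9 member pairs called between states was 16 with DESeq2, 18 without the low-count filter and 2 to 8 with a goat left out. The matching counts over all features are not given here, so these are not read as a result about the members. In each pair of tissues compared, DESeq2 and the run without the filter also called more of all features. Between diaphragm and masseter the calls went from 327 to 542 with DESeq2 and to 455 without the filter. For MYH11 (log2 differences), rumen minus reticulum ran from -1.16 to -0.37 with a goat left out. Omasum minus reticulum was called with DESeq2 (-1.50) and without the filter (-1.50), and ran from -1.75 to -1.24 with a goat left out. Duodenum minus abomasum was called with DESeq2 (1.99), without the filter (2.03), with TMM outside lncRNAs (1.98) and with library totals (2.23), and ran from 1.54 to 2.25 with a goat left out. Colon minus duodenum ran from 1.38 to 1.73. The cause was not tested. With the goat as a replicate block, MYBPC2 per 1000 MYBPC1 counts differed by -43.6 (exact sign-flip test within goats, p = 0.0312, the smallest possible). That p too was fixed by the separation of MYBPC2 in every library. The block added the call of MYH7B between left ventricle and masseter, removed that of MYH15 between abomasum and omasum, and changed no other member's call. It moved the calls over all features from 156 higher and 171 lower to 279 and 324 between diaphragm and masseter, from 1 and 20 to 22 and 70 between omasum and reticulum, and from 5 and 1 to 1 and 0 between duodenum and abomasum.

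Library totals shifted the median of all features by 0.36 (log2) between diaphragm and masseter, with 388 higher and 68 lower calls (206 and 148 with the deposited offsets), and by -0.38 between left ventricle and diaphragm, with 717 and 2556 calls in place of 1242 and 1230. Between esophagus and reticulum the shift was -0.17, with 148 and 499 calls in place of 229 and 336. TMM outside lncRNAs shifted it by 0.19 between abomasum and omasum, with 1601 and 1096 calls in place of 1118 and 1426. MYBPC1, MYBPC2, MYBPC3 and MYH15 each had no count in 28 to 39 of 198 libraries. At this depth a low level and an absent transcript cannot be told apart in those libraries.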

Other observations

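Other genes of the myosin and binding protein families had patterns of their own. MYH8, the perinatal skeletal heavy chain, had 726, 0 and 3822 CPM in the esophagus of lactating goats and 0 CPM in each dry goat, the high libraries being those of goats 2 and 6 with skeletal muscle markers. It reached at most 2.11 CPM in the diaphragm and 2.53 CPM in the masseter, and 0.288 CPM in the neck skin of goat 3, where the skeletal muscle markers were also high. The thyroid held MYH8 in every goat, at 34.3, 26.5 and 42.7 CPM in lactating goats and 91.5, 150 and 132 CPM in dry goats, without overlap (-1.99 ± 0.25, edgeR adjusted p = 0.0115).

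MYBPH, the binding protein H related to the MYBPC genes, was highest in the hippocampus (949 ± 177 CPM), the bridge of the brainstem (662 ± 146 CPM) and the cerebellar hemisphere (621 ± 116 CPM), and averaged 16.4 ± 24.5 CPM in the diaphragm. In the pineal gland it had 462, 330 and 685 CPM in lactating goats and 92.7, 92.6 and 69 CPM in dry goats. MYBPHL, its relative known from the heart, was highest in the spleen (7.22 ± 4.37 CPM). The genes in this section were read from fixed lists of partner genes, and their examples were picked after their values were seen.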
